A study of Mus musculus with 5 samples.

Results

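The genes described here carry fatty acids into the muscle fiber and oxidize them. They are 10 of the 32285 genes counted in a single-nucleus atlas of mouse hindlimb muscle: Cd36, Lpl, Fabp3, Angptl4, Acsl1, Cpt1b, Acadl, Hadha, Pdk4 and Ppara. They were chosen by name for their function, with earlier results of these data known. All 10 had UMIs (unique molecular identifiers, 1 for each captured RNA molecule) in the myonuclei of every library.

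Circulating triglyceride is split by lipoprotein lipase (Lpl), which muscle fibers secrete and which acts on the capillary wall, where Angptl4 inhibits it. The freed fatty acids cross membranes with the help of Cd36 and are bound in the cytosol by Fabp3. Acsl1 joins them to coenzyme A, and Cpt1b, the muscle form of carnitine palmitoyltransferase, controls their entry into mitochondria. Acadl and Hadha, the alpha subunit of the trifunctional protein, catalyze steps of beta-oxidation on long chains. Pdk4 is a kinase that switches off pyruvate dehydrogenase, so that less glucose carbon is oxidized, and Ppara is a fatty acid-activated nuclear receptor that is known to induce many of these genes. Slow and type IIa fibers oxidize more fat than type IIb fibers, and birth exposes the pup to a diet of milk fat.

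Nuclei came from Cacna1s-/- (KO) fetuses at E18.5 and from wild type (WT) mice at E14.5, E18.5, postnatal day 5 (P5) and as adults of 2 months, all labelled C57bl6n. Cacna1s encodes the pore of the L-type calcium channel that couples excitation to contraction, and fetuses without it are paralyzed. The KO allele is a KOMP Velocigene deletion of the coding region that all cells carry. Hindlimbs were pooled, 26 for KO and 56, 14, 8 and 4 for WT E14.5, E18.5, P5 and adult, and each pool gave 1 library, so that differences between groups stand on 1 library each and no test could be made. PCM1-positive nuclei, which are mostly myonuclei, were mixed with PCM1-negative nuclei in equal volumes before RNA and open chromatin were read from each nucleus, so that shares of cell types were set by the sort. The 5 libraries held 21394846 to 49913899 UMIs in 3621 to 5407 barcodes, of which 3228 to 5106 passed the nuclear filter, and the KO library was the deepest (median 7821 UMIs per nucleus, against 5926 in WT E18.5). Cacna1s itself was at 0.739 CPM (8 UMIs) in KO myonuclei, against 189 CPM in WT E18.5 myonuclei and 211, 348 and 327 CPM in WT E14.5, P5 and adult myonuclei. Pairs of libraries shared 17 to 47 barcodes, at most 0.942% of the smaller library.

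Myonuclei were nuclei in which Ttn, Neb, Trdn and Ryr1 together made up at least 1.5% of UMIs (4% in the adult). They numbered 976 in KO E18.5 and 1809, 1562, 1754 and 4378 in WT E14.5, E18.5, P5 and adult. Below that share, nuclei with a UMI of Pecam1, an endothelial gene, numbered 122 in KO and 116, 132, 102 and 13 in the WT stages, and nuclei with a UMI of Pdgfra, a gene of mesenchymal progenitors, numbered 969 in KO and 1290, 1374, 795 and 136. Nuclei with at least 2 UMIs of Adipoq and Plin1 were set aside as adipocyte nuclei (113 in KO and 0, 9, 44 and 80 in the WT stages), and so were nuclei with both Pecam1 and Pdgfra (44 in KO and 35, 65, 38 and 1). The share of the 4 myonuclear genes was within 20% of the limit in 141 KO nuclei and in 306, 123, 80 and 48 nuclei of the WT stages. Levels are given as CPM, the UMIs of a gene per 1000000 UMIs summed over the nuclei of a class, with an exact Poisson 95% interval, and differences as ratios of 2 such levels with an exact binomial 95% interval. Both intervals cover counting error only. Levels compare 1 gene between groups and not 1 gene with another, since captured intronic RNA depends on gene length. A gene with at least 50 UMIs in the 2 sums together was compared, and was called when it differed at least 2-fold with its interval on 1 side of 1.

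The classes were checked with markers outside the rule. All 11 further myonuclear markers (Acta1, Ckm, Mybpc1, Tnnt3, Atp2a1 and myosin heavy chains) had UMIs in the myonuclei of every library, with a summed level of 10443 CPM in KO and 4400, 12830, 14319 and 10315 CPM in the WT stages, against 245 to 632 CPM in the other 2 classes. The 8 endothelial markers summed to 3273 to 5860 CPM in Pecam1-positive nuclei and to 8.07 to 103 CPM in myonuclei. The 8 mesenchymal markers summed to 2868 to 12085 CPM in Pdgfra-positive nuclei. Their sum in myonuclei was 533 CPM in KO and 194, 1490, 1762 and 42.9 CPM in the WT stages. The 3 muscle stem cell markers summed in myonuclei to 55.6 CPM in KO and to 215, 49.3, 30.4 and 10.8 CPM in the WT stages. Both sums therefore moved between libraries, and their part in the levels below was not tested. The 13 Pecam1-positive nuclei of the adult held 19251 UMIs in all and are left out of the comparisons.

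Of the members, Cd36 and Acsl1 have 2 separate starts in the deposited feature list, and no peak was called at the second start of Acsl1. Cd36 spans 17781690 to 17888801 on the minus strand of chromosome 5 (GRCm38). An outer start lies at the far end of the gene, and an inner start, the one with a RefSeq promoter entry, lies at position 17835696. The RefSeq start of this inner promoter lies somewhat upstream of that position. The 250 bases before the RefSeq start are shown because the classes differed in which start was more open. In counts summed over the 5 libraries, the inner start was the more open one in Pecam1-positive nuclei and the less open one in myonuclei. Capitals mark an E box (CANNTG, the letters bound by MyoD family factors) and the AGGTCA element of nuclear receptors, which lies on the other strand and reads TGACCT here.
Cd36 inner start, chr5:17835897-17836146: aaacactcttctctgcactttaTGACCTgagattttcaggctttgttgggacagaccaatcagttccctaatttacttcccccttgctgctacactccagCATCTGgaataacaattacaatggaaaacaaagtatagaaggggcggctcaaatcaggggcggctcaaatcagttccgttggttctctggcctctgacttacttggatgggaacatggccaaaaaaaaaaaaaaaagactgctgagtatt
The sequence came from the RefSeq promoter table (GRCm38.p6), in which 7 of the 10 members had an entry (Lpl, Angptl4 and Cpt1b did not). It held 1 E box and 1 AGGTCA element. Over the 250 bases before the start in each of 32851 RefSeq promoters, searched on both strands, 66.2% held an E box and 14.0% held an AGGTCA element. The direct repeat of AGGNCA with 1 base between its copies, the form that PPAR receptors are known to bind, was in 0.338% of promoters and not in this one. A match is a description of the letters and not of binding. The other members lie on the same build as follows. Of the other uptake genes, Lpl spans 68880491 to 68907448 on chromosome 8 (plus strand), Fabp3 130308595 to 130315463 on chromosome 4 (plus) and Angptl4 33773750 to 33781830 on chromosome 17 (minus). Acsl1 spans 46471037 to 46536051 on chromosome 8 (plus) and Cpt1b 89416405 to 89425863 on chromosome 15 (minus). Acadl spans 66830839 to 66863277 on chromosome 1 (minus) and Hadha 30118304 to 30155162 on chromosome 5 (minus). Pdk4 spans 5483351 to 5496309 on chromosome 6 (minus) and Ppara 85734983 to 85802819 on chromosome 15 (plus). Ends of Fabp3 and Hadha overlap neighbours on the other strand by 75 to 81 bases.

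Open chromatin at the 2 starts was counted as ATAC cut sites in the peaks within 500 bases of each and scaled to 1000000 counts in all peaks of the class (ATAC CPM). At the outer start, myonuclei had 15.6 ATAC CPM in KO and 9.86, 7.24, 10.8 and 3.61 ATAC CPM at WT E14.5, E18.5, P5 and adult, from 88 to 137 counts each. Pecam1-positive nuclei had 0 counts there in all 5 libraries, with upper interval bounds of 12.9 ATAC CPM in KO and 15.0, 6.51 and 14.1 ATAC CPM at WT E14.5, E18.5 and P5. Each of these bounds reached into the myonuclear interval of its library, so that within 1 library the depth did not separate the classes at this start. With the counts of the 5 libraries added up, adult and KO included, Pecam1-positive nuclei had at most 2.60 ATAC CPM. Myonuclei had 6.99 ATAC CPM (6.20 to 7.86). These sums mix the libraries in unlike parts. The adult gave 37973103 of 80805569 counts in myonuclei and, from its 13 nuclei, 115069 of 2836173 in Pecam1-positive nuclei. The sums therefore do not hold the stage equal between the classes. At the inner start the order was turned round. Pecam1-positive nuclei had 26.2 ATAC CPM (interval up to 52.8) in KO and 40.8, 15.9 and 17.2 ATAC CPM at WT E14.5, E18.5 and P5, from 9 to 20 counts each, and myonuclei had 7.09 ATAC CPM (40 counts) in KO and 3.57, 3.55 and 7.15 ATAC CPM. The intervals of the classes were apart at WT E14.5 and E18.5 and met or overlapped in KO and at P5. The summed levels, mixed in the same unlike parts, were 22.6 ATAC CPM (15.4 to 31.9) in Pecam1-positive nuclei. In myonuclei they were 3.94 ATAC CPM (lower bound 3.35). Both classes of a library were counted over the same peaks. Pdgfra-positive nuclei had at most 2.07 ATAC CPM at the outer start and 7.45 at the inner one.

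Over the WT stages the 10 genes did not follow a single course in myonuclei. The lowest of the 4 levels was that of E14.5 for 7 of the 10 genes, and the highest was that of P5 for 9, the exception being Ppara. Cd36 had at E14.5 already the level of the adult. Cd36 had 347, 244, 872 and 342 CPM from E14.5 through E18.5 and P5 to the adult, so that its level was 0.702-fold (0.668 to 0.737) at E18.5 against E14.5, 3.58-fold (3.44 to 3.73) at P5 against E18.5 and 0.392-fold (0.380 to 0.404) in the adult against P5. Neighbouring stages differed beyond counting error, while the intervals of E14.5 and the adult overlapped. Over the 13 other settings listed, the Cd36 ratio of E18.5 to E14.5 ran from 0.629 to 0.996. The size of this step therefore depended on the setting.

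Lpl had 4.52, 55.2, 123 and 72.5 CPM at the 4 stages. It was 12.2-fold higher (9.01 to 17.0) at E18.5 than at E14.5 and 2.22-fold higher (2.03 to 2.44) at P5 than at E18.5, and its adult level was 0.591-fold (0.549 to 0.636) that of P5, short of a call. Angptl4, the inhibitor of Lpl, stood out at P5, with 0.821, 0.240, 14.2 and 0.460 CPM from 8, 3, 174 and 9 UMIs. The ratio of P5 to E18.5 was 59.1 (19.9 to 289), over 3 UMIs at E18.5, and that of the adult to P5 was 0.0324 (0.0146 to 0.0630). Fabp3 had 10.5, 8.08, 39.8 and 18.1 CPM. It was 4.92-fold higher (3.97 to 6.16) at P5 than at E18.5 and 0.455-fold (0.395 to 0.523) in the adult against P5, while E18.5 and E14.5 did not differ beyond counting error (ratio 0.771, 0.580 to 1.03).

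Of their 4 levels, Acsl1 and Cpt1b had the lowest at E14.5. Acsl1 had 43.7, 131, 311 and 275 CPM at the 4 stages, 2.99-fold higher (2.68 to 3.33) at E18.5 than at E14.5 and 2.38-fold higher (2.25 to 2.52) at P5 than at E18.5. Cpt1b had 2.16, 36.5, 82.1 and 66.7 CPM, 16.9-fold higher (10.9 to 27.6) at E18.5 than at E14.5 and 2.25-fold higher (2.02 to 2.52) at P5 than at E18.5. Adult and P5 levels of both were within 1.5-fold of each other, at ratios of 0.886 for Acsl1 and 0.812 for Cpt1b. Cpt1b lies wholly within Gm44502, a read-through model on the same strand that is not among the counted genes, so that its value may hold RNA of that transcript. The beta-oxidation enzymes stayed within 2-fold at each step. Acadl had 56.3, 85.1, 147 and 84.8 CPM and Hadha 57.6, 83.2, 154 and 106 CPM, with ratios of 1.51 and 1.44 at E18.5 against E14.5, 1.72 and 1.85 at P5 against E18.5, and 0.578 and 0.686 in the adult against P5. None of these was called, although each was beyond counting error.

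Pdk4 and Ppara turned up at different times. Pdk4 had 1.03, 7.68, 145 and 118 CPM, with 10 and 96 UMIs at E14.5 and E18.5. Its ratio was 7.48 (3.89 to 16.1) at E18.5 against E14.5 and 18.9 (15.4 to 23.4) at P5 against E18.5, the second largest of the members at that step after Angptl4, and the adult level was 0.816-fold that of P5. Ppara had 3.49, 78.0, 58.7 and 156 CPM. It was 22.4-fold higher (15.9 to 32.5) at E18.5 than at E14.5, the largest ratio of the members at that step, 0.752-fold (0.682 to 0.829) at P5 against E18.5, and 2.65-fold higher (2.45 to 2.88) in the adult than at P5. Ppara was thus the member whose level was lower at P5 than at E18.5, at the step where the other 9 were higher.

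**Figure D1:**
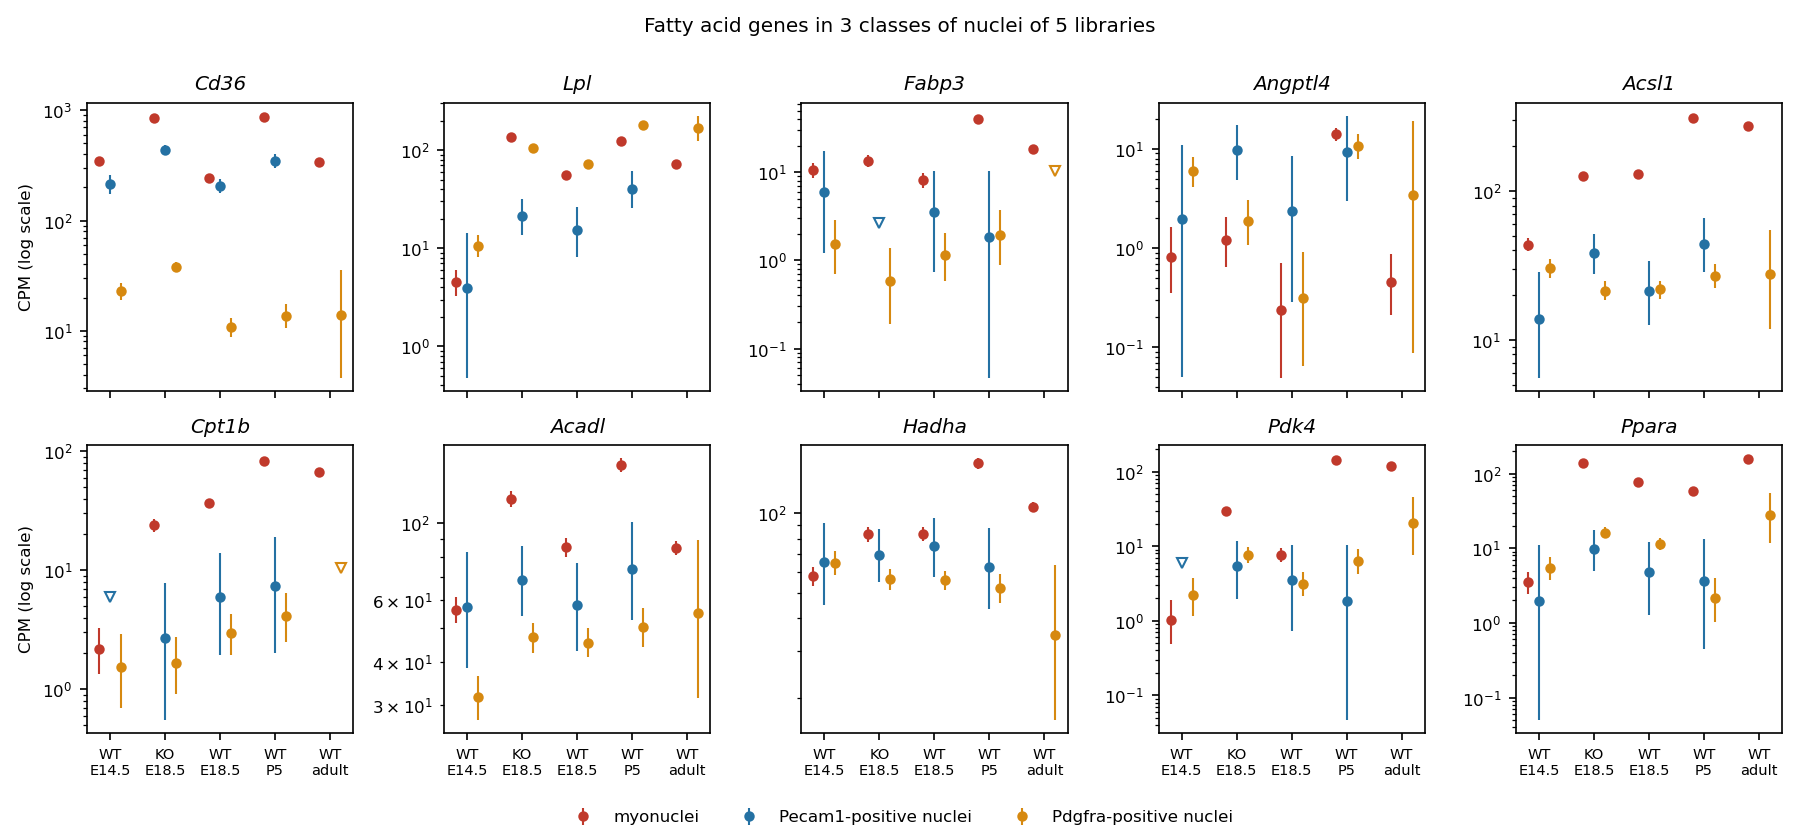
Level of each member in CPM (log axis, a separate range for each gene) in myonuclei, Pecam1-positive nuclei and Pdgfra-positive nuclei of WT E14.5, KO E18.5, WT E18.5, WT P5 and WT adult. Bars are exact Poisson 95% intervals, open triangles mark the level of 3 UMIs where none was seen, and adult Pecam1-positive nuclei (13 nuclei) are not drawn. Myonuclear Cd36 was 843 CPM in KO, beside 872 CPM at WT P5 and 244 CPM in WT E18.5, and Angptl4 stood out in WT P5 at 14.2 CPM.

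Counted together, 5 of the 9 members compared were called higher at E18.5 than at E14.5 and 0 lower, where 15.6% of all 13095 genes were called higher and 8.92% lower. At P5 against E18.5, 7 of 10 were called higher and 0 lower, beside 6.78% and 18.8% of 13174 genes. In the adult against P5, 1 of 10 was called higher and 3 lower, beside 8.14% and 30.2% of 12352 genes. The median log2 ratio of the members was 1.58, 1.21 and -0.65 at the 3 steps, against 0.16, -0.34 and -0.34 for all genes. Ratios relative to these medians of all genes would add Acadl and Hadha to the calls at P5 and remove Fabp3 in the adult. The call of 7 at P5 depended on how myonuclei were taken: with a share of 4% of the 4 genes in every library, 4 of 10 were called, and Lpl, Acsl1 and Cpt1b (fold 1.76, 2.00 and 1.46) were not. Within Myh8 myonuclei, those with the neonatal myosin as their main one, 5 of 10 were called at P5 against E18.5, and Lpl and Cpt1b (log2 ratios 0.87 and 0.83) were not. With a share of 4% in every library, Pdk4 at E18.5 against E14.5 was 1.19-fold, and Acadl, at 2.41-fold, was called. The shares of all genes given above belong to the main setting and not to these alternatives. The 5 macrophage markers summed to 322 CPM in P5 myonuclei and to 7.60, 56.8 and 38.3 CPM at E14.5, E18.5 and adult, and their part in the P5 levels was not tested.

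In Pecam1-positive nuclei Cd36 had 214, 205 and 345 CPM at WT E14.5, E18.5 and P5, with a ratio of 0.961 (0.752 to 1.23) at E18.5 against E14.5 and 1.68 (1.36 to 2.08) at P5 against E18.5. Endothelial cells are known to use Cd36 to pass fatty acids from blood to muscle. In Pdgfra-positive nuclei Cd36 had 22.9, 10.8, 13.7 and 13.8 CPM, or 4.4% of the myonuclear level at E18.5. Myonuclear markers stood at a median of 3.10% of their myonuclear level in the same nuclei, so that this level was in the range of free RNA and is not read as expression. Lpl was of another kind. It had 10.5, 72.2, 179 and 169 CPM in Pdgfra-positive nuclei at the 4 stages, above the myonuclear level at each, and was 6.86-fold higher (5.28 to 9.04) at E18.5 than at E14.5 and 2.48-fold higher (2.24 to 2.75) at P5 than at E18.5. Angptl4 in Pdgfra-positive nuclei had 5.94, 0.315 and 10.7 CPM at E14.5, E18.5 and P5 (35, 3 and 49 UMIs). As in myonuclei, the highest of these was that of P5. At E14.5, however, its level was 7.23-fold (3.30 to 18.1) that of myonuclei. Ppara in these nuclei had 5.43, 11.4 and 2.18 CPM at the same stages (32, 109 and 10 UMIs). Its P5 level was 0.190-fold (0.0887 to 0.363) that of E18.5. At P5 it stood at 3.71% of the myonuclear level, where myonuclear markers stood at 0.937% to 7.20%. The P5 level was thus in the range of free RNA and is not read as expression.

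The KO comparison sets these genes in KO beside WT at E18.5. With 1 library per genotype, loss of Cacna1s, loss of movement and differences between libraries cannot be told apart. In KO myonuclei Cd36, Lpl and Pdk4 were higher than in WT E18.5 myonuclei, Ppara, Fabp3 and Acadl were higher by less than 2-fold, Acsl1 and Hadha did not differ beyond counting error, and Cpt1b was lower. Cd36 had 843 CPM in KO and 244 CPM in WT E18.5 (3.46-fold, 3.32 to 3.61). Lpl had 136 CPM in KO and 55.2 CPM in WT E18.5 (2.46-fold, 2.24 to 2.69). Pdk4 had 29.5 CPM in KO and 7.68 CPM in WT E18.5 (3.85-fold, 3.06 to 4.89). The fatty acid transporter, the lipase and the kinase were thus the genes called among the 9 that could be compared.

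Ppara had 139 CPM in KO and 78.0 CPM in WT E18.5 (1.78-fold, 1.64 to 1.93), Fabp3 13.4 CPM in KO and 8.08 CPM in WT E18.5 (1.66-fold, 1.28 to 2.16), and Acadl 117 CPM in KO and 85.1 CPM in WT E18.5 (1.38-fold, lower bound 1.27). Acsl1 had 126 CPM in KO and 131 CPM in WT E18.5 (ratio 0.963, 0.896 to 1.04), and Hadha 83.1 CPM in KO and 83.2 CPM in WT E18.5 (ratio 0.999, 0.913 to 1.09). Cpt1b had 23.9 CPM in KO and 36.5 CPM in WT E18.5 (ratio 0.656, 0.561 to 0.766). Angptl4 had 13 UMIs in KO and 3 in WT E18.5, too few to be compared (ratio 5.00, 1.38 to 27.4). In all, 3 of 9 members were called higher and 0 lower, beside 4.71% and 4.83% of 13343 genes, and the median log2 ratio was 0.73 for the members and -0.04 for all genes. The 3 calls held under all 13 other settings listed for this comparison, with folds of 3.39 to 3.58 for Cd36, 2.20 to 2.78 for Lpl and 3.45 to 3.96 for Pdk4.

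Mesenchymal markers summed to 533 CPM in KO myonuclei and 1490 CPM in WT E18.5 myonuclei, macrophage markers to 53.2 CPM in KO and 56.8 CPM in WT E18.5, and endothelial markers, whose cells contain Cd36, to 103 CPM in KO and 62.7 CPM in WT E18.5. In KO Pecam1-positive nuclei, where Cd36 was at 439 CPM, the endothelial sum was 4641 CPM. The part of these markers in the result was not tested. Adipocytes also express Cd36 and Lpl. The 9 adipocyte markers summed to 4.62 CPM in KO myonuclei and 5.68 CPM in WT E18.5 myonuclei, against 1900 CPM in KO adipocyte nuclei. Acsl1 had 6.72 UMIs per Cd36 UMI in KO adipocyte nuclei and 27.1 in those of WT E18.5, the latter over 15 Cd36 UMIs. It had 0.149 per Cd36 UMI in KO myonuclei and 0.536 in WT E18.5 myonuclei, a ratio that also moves with Cd36 itself. The part of adipocyte RNA in the result was not tested.

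KO E18.5 levels were also set beside those of the later WT stage. KO E18.5 myonuclei had Cd36 at 0.967-fold (0.940 to 0.994) and Lpl at 1.11-fold (1.03 to 1.19) the level of WT P5 myonuclei, and Ppara at 2.37-fold (2.16 to 2.59). Fabp3 was at 0.337-fold, Acsl1 at 0.405-fold, Cpt1b at 0.291-fold, Pdk4 at 0.204-fold and Angptl4 at 0.0847-fold the P5 level. The median log2 ratio of KO E18.5 to WT P5 was -1.10 for the members and 0.31 for all 13092 genes. The 2 comparisons share the KO library.

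In Pecam1-positive nuclei Cd36 was also higher in KO, at 439 CPM, against 205 CPM in WT E18.5 (2.14-fold, 1.80 to 2.56). It was the call among 4 members that could be compared, where 4.94% of 6580 genes were called higher and 4.24% lower. Acsl1 had 43 UMIs in KO and 18 in WT E18.5 (1.79-fold, 1.01 to 3.30), and Acadl (ratio 1.18, 0.814 to 1.72) and Hadha (ratio 0.930, 0.658 to 1.32) did not differ beyond counting error. With at least 2 UMIs of Pecam1, or with a minimum of 400 ATAC counts, Cd36 fell short of 2-fold, the lowest value being 1.87. Myonuclear markers in these nuclei stood at a median of 7.26% of their myonuclear level in KO and 1.60% in WT E18.5, while Cd36 stood at 52.1% in KO and 84.3% in WT E18.5. Other markers also moved in these nuclei. The 8 mesenchymal markers summed to 338 CPM in KO and 2559 CPM in WT E18.5, the 8 endothelial markers to 4641 CPM in KO and 5860 CPM in WT E18.5, and the 9 adipocyte markers to 19.6 CPM in KO (5 of 9 with UMIs) and 4.75 CPM in WT E18.5 (1 of 9). Macrophage markers summed to 304 CPM in KO and 261 CPM in WT E18.5. The part of these markers in the result was not tested.

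In Pdgfra-positive nuclei 2 of 7 members were called higher and 0 lower, beside 5.04% and 4.49% of 12997 genes. Cd36 had 38.0 CPM in KO and 10.8 CPM in WT E18.5 (3.51-fold, 2.81 to 4.43). This was 4.5% of the KO myonuclear level, where myonuclear markers stood at a median of 3.53% and at most 6.63%, so that it is not read as expression in these nuclei. Markers that moved in this class were the mesenchymal ones, at 4957 CPM in KO and 8718 CPM in WT E18.5, those of macrophages, at 136 CPM in KO and 70.3 CPM in WT E18.5, and those of smooth muscle and pericytes, at 233 CPM in KO and 155 CPM in WT E18.5, and their part in the levels of the members was not tested. Pdk4 had 7.66 CPM in KO and 3.15 CPM in WT E18.5 (2.44-fold, 1.56 to 3.89), from 65 and 30 UMIs, or 25.9% and 41.0% of the myonuclear level. Lpl had 105 CPM in KO and 72.2 CPM in WT E18.5 (1.45-fold, 1.32 to 1.61) and Ppara 16.2 CPM in KO and 11.4 CPM in WT E18.5 (1.41-fold, 1.09 to 1.83). Acsl1, Acadl and Hadha had ratios of 0.983, 1.04 and 1.01, with intervals that held 1. Angptl4, too low to be compared, had 16 UMIs in KO and 3 in WT E18.5 Pdgfra-positive nuclei (ratio 5.99, 1.72 to 32.1), and 11 in KO and 2 in WT E18.5 Pecam1-positive nuclei.

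**Figure D2:**
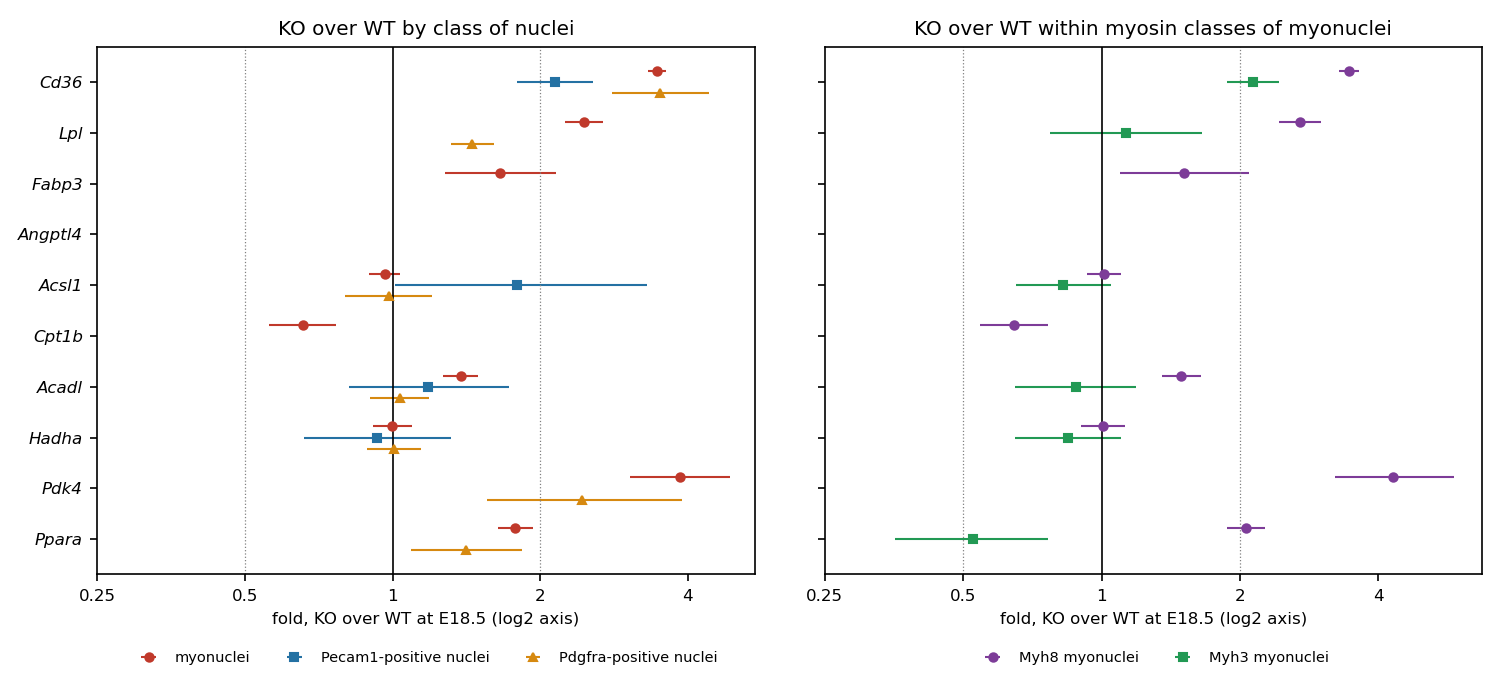
Ratio of KO to WT E18.5 levels (log2 axis) of each member with at least 50 UMIs in both groups together, in 3 classes of nuclei (left) and in myonuclei split by their leading myosin, Myh8 or Myh3 (right). Bars are exact binomial 95% intervals, the solid line marks no difference and dotted lines mark 2-fold. Cd36 lay above 2 in each set of nuclei, and Ppara lay on opposite sides of 1 in Myh8 myonuclei (2.06) and Myh3 myonuclei (0.525).

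Myonuclei were next split by the myosin heavy chain gene that held at least 60% of their myosin UMIs. At E18.5 the KO library had 648 Myh8, 145 Myh3 and 10 Myh7 myonuclei, and the WT library 944, 262 and 16. Within Myh8, the neonatal myosin, Cd36 had 985 CPM in KO and 285 CPM in WT (3.45-fold, 3.29 to 3.63), Lpl 178 CPM in KO and 65.9 CPM in WT (2.70-fold, 2.43 to 3.00) and Pdk4 33.2 CPM in KO and 7.69 CPM in WT (4.31-fold, 3.22 to 5.85). Ppara, at 181 CPM in KO and 87.7 CPM in WT (2.06-fold, 1.88 to 2.27), was called in this class. Within Myh3, the embryonic myosin, Cd36 had 391 CPM in KO and 183 CPM in WT (2.13-fold, 1.88 to 2.43), and Lpl 33.0 CPM in KO and 29.2 CPM in WT (ratio 1.13, 0.774 to 1.66). Ppara had 23.8 CPM in KO and 45.2 CPM in WT there (ratio 0.525, 0.355 to 0.767), from 41 and 93 UMIs, so that it pointed the other way than in Myh8 nuclei. Lpl was not called within Myh3, and Pdk4, with 18 UMIs in KO and 11 in WT, could not be compared there.

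Adult fiber types differed widely in these genes. All 9 members that could be compared were higher in Myh2 (type IIa) than in Myh4 (type IIb) myonuclei, from 211 and 3238 nuclei of the same library, and 8 of them were called, beside 9.33% of 9292 genes called higher and 7.21% lower. The median log2 ratio was 2.08 for the members and 0.00 for all genes. Cd36 had 1554 CPM in Myh2 and 78.9 CPM in Myh4 myonuclei (19.7-fold, 18.3 to 21.2), Ppara 936 CPM in Myh2 and 44.7 CPM in Myh4 (20.9-fold, 19.0 to 23.2), and Lpl 408 CPM in Myh2 and 24.5 CPM in Myh4 (16.7-fold, upper bound 19.2). Fabp3 had 74.9 CPM in Myh2 and 6.32 CPM in Myh4 myonuclei (11.9-fold, 8.65 to 16.2).

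The enzymes differed less. Acsl1 was 4.23-fold (3.90 to 4.58), Hadha 4.20-fold (3.68 to 4.79), Acadl 3.47-fold (2.98 to 4.03) and Cpt1b 3.24-fold (2.70 to 3.86) higher in Myh2 than in Myh4 myonuclei. Their intervals lay below those of Cd36, Ppara, Lpl and Fabp3. Pdk4 differed least, at 151 CPM in Myh2 and 97.4 CPM in Myh4 myonuclei (1.55-fold, 1.30 to 1.83), and Angptl4 had 0 UMIs in Myh2 and 7 in Myh4. Myh1 (type IIx, 479 nuclei) lay between them for most members: Cd36 had 1336 CPM, Lpl 196 CPM, Ppara 440 CPM and Acsl1 592 CPM. Pdk4 was highest in Myh1, at 245 CPM (2.51-fold over Myh4, 2.28 to 2.77). The 24 adult Myh7 (slow) myonuclei, of 92209 UMIs, had Cd36 at 933 CPM, Lpl at 423 CPM and Ppara at 510 CPM, but 3 UMIs of Pdk4 (32.5 CPM, ratio to Myh4 0.334, 0.0688 to 0.978).

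At P5 Cd36 did not differ beyond counting error between Myh1 and Myh4 myonuclei. It had 1345, 911, 879 and 822 CPM in P5 Myh7, Myh1, Myh4 and Myh8 myonuclei (55, 85, 450 and 767 nuclei), with a ratio of 1.04 (0.946 to 1.13) for Myh1 against Myh4. Fabp3 was 2.53-fold higher (1.70 to 3.71) in P5 Myh1 than in P5 Myh4 myonuclei, and Ppara 1.86-fold (1.31 to 2.60). Pdk4 at P5 was highest in Myh7 myonuclei, at 602 CPM, against 69.7 CPM in Myh4 (8.64-fold, 7.22 to 10.3), the reverse of the order in the adult, where its level in Myh7 rested on 3 UMIs.

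**Figure D3:**
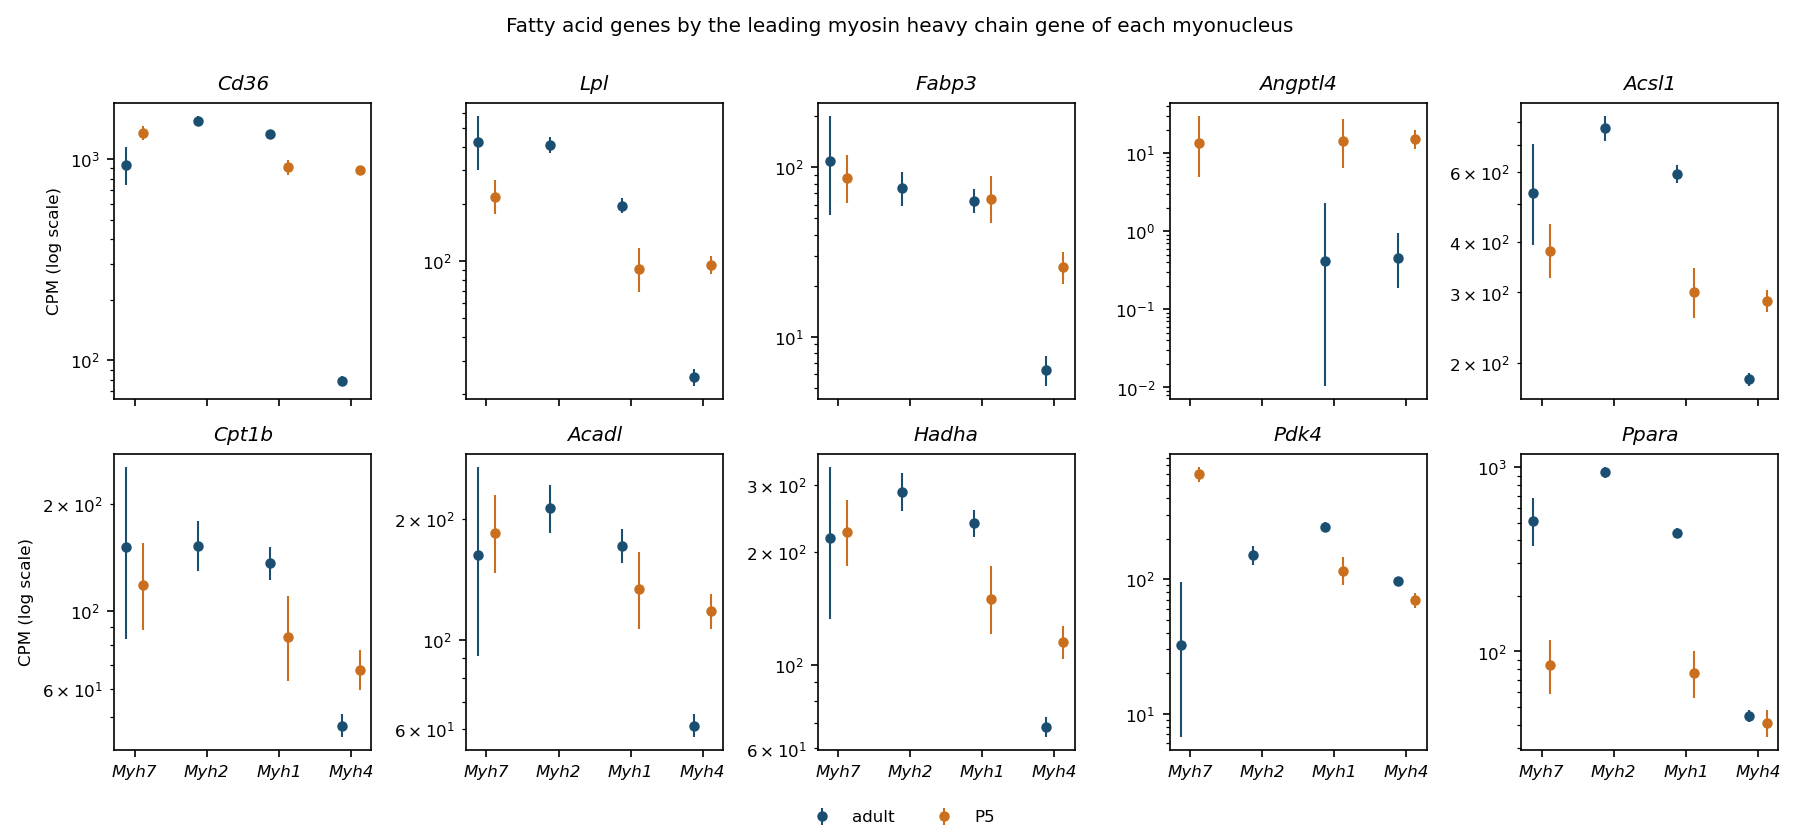
Level of each member in CPM (log axis) in myonuclei split by leading myosin in adult and P5 WT muscle. Bars are exact Poisson 95% intervals, and P5 Myh2 myonuclei (9 nuclei) and classes with 0 UMIs of a gene are not drawn. In the adult, Cd36 had 1554 CPM in Myh2 and 78.9 CPM in Myh4 myonuclei, while at P5 its levels in Myh7, Myh1 and Myh4 myonuclei lay between 879 and 1345 CPM.

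Myh4 nuclei made up 3238 of the 4378 adult myonuclei. Within Myh4, Cd36 had 78.9 CPM in the adult and 879 CPM at P5 (ratio 0.0898, 0.0839 to 0.0961), Lpl 24.5 CPM in the adult and 96.0 CPM at P5 (ratio 0.255, 0.219 to 0.297) and Fabp3 6.32 CPM in the adult and 25.7 CPM at P5 (ratio 0.246, 0.182 to 0.333). Ppara in Myh4 nuclei did not differ beyond counting error (44.7 CPM in the adult and 41.0 CPM at P5, ratio 1.09, 0.907 to 1.32). Within Myh1, Ppara had 440 CPM in the adult and 76.2 CPM at P5 (5.78-fold, 4.33 to 7.89), Lpl was 2.17-fold higher (1.64 to 2.90), Pdk4 2.11-fold higher (1.65 to 2.73) and Cd36 1.47-fold higher (1.34 to 1.61) in the adult. Adult and P5 myonuclei thus differed in opposite directions for Cd36 and Lpl in the 2 classes, a difference between classes that was not tested.

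Shares of nuclei gave a similar picture for Cd36. A Cd36 UMI was found in 79.5% of KO myonuclei and in 46.7%, 46.8%, 76.8% and 25.7% of myonuclei at WT E14.5, E18.5, P5 and adult. After thinning each nucleus to 1500 UMIs, which left out 15 KO nuclei and 63, 11, 127 and 910 WT nuclei, the shares were 55.9% (52.7 to 59.1, exact binomial interval) in KO and 29.2%, 23.6%, 56.2% and 20.2% in the WT stages. In Pdgfra-positive nuclei, taken as background, the thinned share was 2.48% in KO (median depth 7494 UMIs, against 10148 in KO myonuclei) and 1.33% in WT E18.5 (5937, against 6970 in myonuclei). Thinned shares for Lpl were 17.0% in KO and 7.22% in WT E18.5 myonuclei, for Ppara 18.4% in KO and 10.8% in WT E18.5, and for Pdk4 4.48% in KO and 1.74% in WT E18.5. Without thinning, the shares in KO and WT E18.5 were 50.1% and 24.8% for Lpl, 46.2% and 32.8% for Ppara and 18.7% and 5.25% for Pdk4. The 10% of thinned nuclei with most Cd36 held 37.7% of its UMIs in KO and 63.4% in WT E18.5 myonuclei, against 38.3% at P5 and 75.6% in the adult. Such a share depends on the mean, which was 1.29, 0.372, 1.28 and 0.450 Cd36 UMIs per thinned nucleus in the same order. It is therefore not read as a difference in spread among nuclei.

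Open chromatin at the starts of Cd36, Lpl and Pdk4 differed between KO and WT E18.5 myonuclei by smaller ratios than their RNA, with intervals that overlapped those of the RNA for Lpl and the inner Cd36 start. Between KO and WT E18.5 myonuclei, ATAC CPM were higher at both Cd36 starts (outer 15.6 in KO and 7.24 in WT, 2.16-fold, 1.41 to 3.28, inner 2.00-fold, 1.06 to 3.72) and at Lpl (17.2 in KO and 8.60 in WT, 2.00-fold, 1.35 to 2.95). Over 13806 gene starts the median ratio was 1.02, 80% of the starts lay between 0.735 and 1.32, and 0.797% were at least 2-fold higher. Peaks were called in each library apart, and that at the outer Cd36 start covered 1321 bases in KO and 898 in WT. Per kilobase covered, the ratios were 1.47 (outer) and 1.26 (inner) for Cd36 and 1.73 for Lpl. Pdk4, whose RNA was 3.85-fold higher in KO, had a ratio of 1.25 (1.02 to 1.52) at its start, and Ppara one of 0.988 (0.839 to 1.16). Cpt1b, whose RNA was lower in KO, had 41.3 ATAC CPM in KO and 31.8 in WT (ratio 1.30, 1.03 to 1.63).

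Over the stages, no peak was called at the Cpt1b start at E14.5, where its RNA was at 2.16 CPM, and the start then had 31.8, 77.5 and 61.6 ATAC CPM at E18.5, P5 and adult. Pdk4 had 15.0, 42.7, 93.2 and 89.9 ATAC CPM at the 4 stages, 2.85-fold higher (2.22 to 3.68) at E18.5 than at E14.5 and 2.18-fold higher (1.90 to 2.51) at P5 than at E18.5. Angptl4 had 13.1, 7.64, 31.5 and 14.3 ATAC CPM, with its highest value, like its RNA, at P5 (4.12-fold over E18.5, 3.04 to 5.65, and 3.97-fold per kilobase covered). Ppara had 34.5, 75.5, 66.0 and 72.1 ATAC CPM, so that its adult RNA level, 2.65-fold that of P5, came with a ratio of 1.09 (0.976 to 1.23) at its start. The Acsl1 start had its highest value in the adult, at 68.4, 90.3, 118 and 159 ATAC CPM over the stages. Median ratios over all starts at the 3 steps were 0.999, 1.04 and 0.910. Between adult Myh2 and Myh4 myonuclei, counted over the same peaks, the outer Cd36 start had 15.1 ATAC CPM in Myh2 and 1.93 in Myh4 (7.83-fold, 3.82 to 15.4), Lpl from 29 counts in Myh2 and 140 in Myh4 (2.91-fold, 1.53 to 5.17) and Ppara 139 in Myh2 and 56.7 in Myh4 (2.45-fold, 2.03 to 2.95). Acsl1 (0.910, 0.761 to 1.08) and Hadha (0.997, 0.717 to 1.36), whose RNA was over 4-fold higher in Myh2, did not differ there beyond counting error, beside a median of 1.02 and 2.15% of 10796 starts at least 2-fold higher. In adult Myh1 myonuclei the outer Cd36 start had 8.68 ATAC CPM (42 counts) and the inner one 10.5 (51 counts), with intervals that overlapped.

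**Figure D4:**
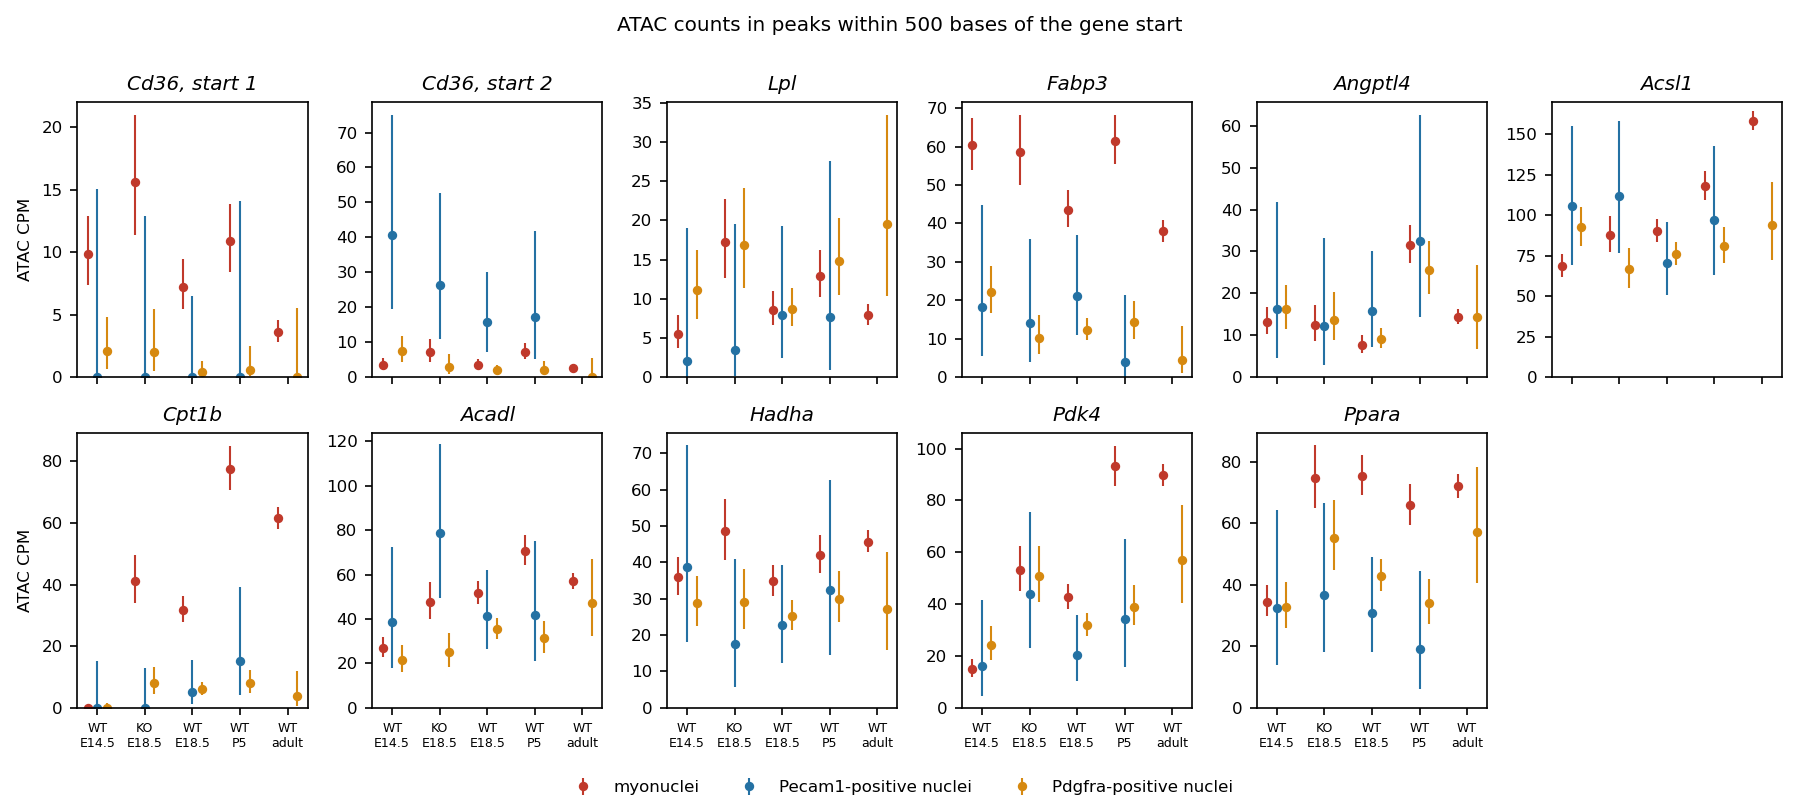
ATAC CPM at the start of each member (outer and inner start for Cd36) in myonuclei, Pecam1-positive nuclei and Pdgfra-positive nuclei of the 5 libraries, with exact 95% intervals. Adult Pecam1-positive nuclei are not drawn, and start 1 of Cd36 is the outer one. The outer Cd36 start had 3.61 to 15.6 ATAC CPM in myonuclei and 0 counts in Pecam1-positive nuclei of every library.

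Other genes of the pathway, from 7 textbook lists, are given by how many of those compared were called. At P5 against E18.5 in myonuclei, 8 of 13 genes of triglyceride storage and lipolysis were called higher and 3 lower, where 6.78% of all genes were called higher and 18.8% lower. Lpin1, a phosphatidate phosphatase, was 8.98-fold higher (128 CPM at P5 and 14.2 CPM at E18.5), Mgll, which splits monoacylglycerol, 3.92-fold and the lipid droplet proteins Plin4 and Plin2 2.52- and 2.26-fold. In the list of activation and the carnitine shuttle, 5 of 11 were called higher and 1 lower: Cpt1a, the liver form next to Cpt1b, was 6.44-fold higher (52.5 CPM at P5 and 8.16 CPM at E18.5, after 13.7 CPM at E14.5), Acacb, which makes the malonyl-CoA that inhibits both, 3.36-fold and the carnitine carrier Slc25a20 2.38-fold, while Acsl3, a paralog of Acsl1, was at 0.268-fold. Of the 15 other beta-oxidation genes 2 were called higher, among them Eci2 (2.60-fold). Of 12 nuclear receptors and coactivators 3 were called higher, Esrrg (3.41-fold), Ppargc1a (2.79-fold) and Nrip1 (2.62-fold). In uptake and binding 3 of 9 were called higher, with Slc27a1 at 4.52-fold and Vldlr at 2.45-fold, and 3 lower, with Fabp5, a paralog of Fabp3, at 0.163-fold. Peroxisomal oxidation had 1 of 8 higher and pyruvate entry 1 of 10 lower. At E18.5 against E14.5, beside 15.6% and 8.92% of all genes, the counts called higher and lower were 2 and 1 of 8 for uptake, 4 and 0 of 11 for activation, 3 and 0 of 15 for beta-oxidation, 2 and 1 of 10 for triglyceride, 1 and 1 of 8 for peroxisomal, 4 and 2 of 12 for receptors and 2 and 0 of 9 for pyruvate entry. In the adult against P5, beside 8.14% and 30.2% of all genes, they were 1 and 3 of 7, 1 and 1 of 10, 1 and 1 of 15, 3 and 1 of 13, 1 and 0 of 8, 1 and 1 of 12, and 1 and 1 of 9 in the same order.

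In KO against WT E18.5 myonuclei, where 4.71% of all genes were called higher and 4.83% lower, none of 9 uptake genes, 8 peroxisomal genes, 12 receptors and coactivators and 10 pyruvate entry genes was called. Cpt1a had 20.9 CPM in KO and 8.16 CPM in WT E18.5 (2.56-fold, 2.02 to 3.27), in the direction opposite to Cpt1b, and Acsl6, a paralog of Acsl1, had 22.6 CPM in KO and 10.8 CPM in WT E18.5 (2.10-fold, 1.69 to 2.61), the 2 of 11 called in that list. Eci2 was the call of 15 in beta-oxidation (2.07-fold, 1.74 to 2.47). In triglyceride storage Mgll was called higher (35.4 CPM in KO and 13.8 CPM in WT E18.5, 2.57-fold, 2.14 to 3.10) and Pnpla3, named after its values were seen as the other call of 11, lower (16 UMIs in KO and 38 in WT E18.5). Outside the fiber, Pparg, the receptor of fat cell formation, had 91.7 CPM in KO and 23.4 CPM in WT E18.5 Pdgfra-positive nuclei (3.92-fold, 3.37 to 4.57) and 251 CPM in KO and 94.9 CPM in WT E18.5 Pecam1-positive nuclei (2.65-fold, 2.06 to 3.44), with adipocyte nuclei left out. It was 1 of 3 receptors and coactivators called higher in each class, of 12 compared in Pdgfra-positive and 6 in Pecam1-positive nuclei. Of all genes, 5.04% were called higher in Pdgfra-positive and 4.94% in Pecam1-positive nuclei. The 9 adipocyte markers summed to 5.89 CPM in KO and 4.41 CPM in WT E18.5 Pdgfra-positive nuclei, and to 19.6 CPM in KO and 4.75 CPM in WT E18.5 Pecam1-positive nuclei. Their part in the Pparg levels was not tested.

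Between adult Myh2 and Myh4 myonuclei many genes of the lists were, like the members, called higher in Myh2: 11 of 14 beta-oxidation genes, 7 of 10 activation genes, 7 of 11 triglyceride genes and 6 of 12 receptors and coactivators, with 0, 2, 0 and 0 called lower, beside 9.33% and 7.21% of all genes. Hadhb, the partner subunit of Hadha, was 3.87-fold higher, Acadm 3.81-fold and Etfdh 3.02-fold. Esrrg had 2838 CPM in Myh2 and 424 CPM in Myh4 (6.70-fold, 6.41 to 7.00) and Ppargc1a 1053 CPM in Myh2 and 272 CPM in Myh4 (3.87-fold, 3.62 to 4.15). Slc27a1, a fatty acid transporter, was 5.80-fold higher. Acsl3 (0.370-fold) and Acsl4 (0.443-fold), paralogs of Acsl1, were the calls in the other direction in activation. Uptake and peroxisomal oxidation had 2 of 5 and 2 of 8 called higher, and pyruvate entry 2 of 8 higher and 1 lower.

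The genes whose level was most like that of a member were sought over the 15 points of 3 classes in 5 libraries, among 7029 genes of at least 20 CPM on average, by Pearson's r of log2(CPM + 1). These points share libraries and the contrast between myonuclei and the rest, and r is a description. They include the 13 adult Pecam1-positive nuclei, left out of the comparisons, where members such as Acadl and Hadha had 0 UMIs. How far r rests on that point was not tested. Cd36 was closest to Fry (0.95), Cdh13 (0.93) and Dennd1b (0.93), and Fabp3 to Lsmem1 (0.93). Acsl1 was closest to Ppargc1a (0.97), Prkcq (0.97) and Castor2 (0.96), Cpt1b to Myo5c (0.97), Acadl to Scarb2 (0.98) and Hadha to Ssr1 (0.99). Pdk4 was closest to Fto (0.92) and Ppara to Gpatch8 (0.92). Angptl4, with few UMIs outside P5, had no gene above 0.74 (Arrdc3).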

How the data were processed

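RNA and open chromatin were measured in the same nuclei (10x Multiome). The deposited counts are whole-number UMIs per gene and ATAC cut-site counts per peak. Per the labels and the study's methods, the authors ran Cell Ranger ARC (version 2.0.0) against mm10 with intronic reads included and called peaks in each library apart. These counts were not normalized. Nuclei with more than 400 and fewer than 25000 UMIs, less than 10% mitochondrial UMIs and fewer than 70000 ATAC counts were kept, as the study's methods state. A minimum of 400 ATAC counts, which the study names elsewhere, was an alternative. No doublet caller was run.

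UMIs were summed per class of nuclei and library and given as CPM. Since each group is 1 library, ratios carry exact binomial 95% intervals and no test was made. A level of 0 was read against a floor of 3 counts, and intervals of ATAC counts assume 2 cut sites per fragment. Named genes were the 10 members and, of 7 pathway lists, the counts called plus up to 5 genes with most UMIs and paralogs of the members. The members and lists were chosen with earlier results of these data known. For each comparison 13 alternatives were listed with the design (14 between myosin classes), and 5 more, each within 1 myosin class, were added after seeing the data. Intervals came from scipy 1.17.1, sums from numpy 2.4.6 and pandas 2.3.3 under Python 3.11.15, and plots from matplotlib 3.10.9. The genes most like Lpl in level are not reported here.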

Additional observations from a re-analysis of the deposited data

Results flagged for a closer look

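Ppara pointed in opposite directions in the 2 myosin classes of E18.5 myonuclei. Its ratio of KO to WT E18.5 was 2.06 (1.88 to 2.27, from 1287 and 661 UMIs) in Myh8 myonuclei and 0.525 (0.355 to 0.767, from 41 and 93 UMIs) in Myh3 myonuclei. With 1 library per group the difference between the classes was not tested.

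The adipocyte nuclei, left out of every comparison, held high levels of 3 members. In the 113 KO adipocyte nuclei Acsl1 was at 5015 CPM, Lpl at 1042 CPM and Cd36 at 745.9 CPM, against 126, 136 and 843 CPM in KO myonuclei. The WT E18.5 library had 9 such nuclei, with Acsl1 at 4735 CPM, Lpl at 816 CPM and Cd36 at 175 CPM from few UMIs.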

How the results depend on the processing

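In KO against WT E18.5 myonuclei the calls of Cd36, Lpl and Pdk4 held under all 13 other settings listed for it, and no call of any comparison reversed. Within Myh3 myonuclei 1 of 6 members (Cd36) was called higher in KO. The Pecam1-positive comparison was the least stable: 0 of 4 members were called higher with at least 400 ATAC counts, 0 of 3 with at least 2 UMIs of Pecam1, 2 of 6 with a myonuclear share of 3% (8% in the adult), 3 of 6 with a share of 4% in every library and 3 of 5 with adipocyte nuclei kept, where Acsl1 was 18.8-fold higher in KO. Among Pdgfra-positive nuclei 1 of 8 was called lower with a share of 3% (8% in the adult), and with adipocyte nuclei kept Acsl1 was 3.59-fold higher in KO. At P5 against E18.5, 4 of 10 were called higher with a share of 4% in every library. Within Myh3 myonuclei 3 of 7 were called higher and 1 lower at E18.5 against E14.5, within Myh8 myonuclei 5 of 10 higher and 0 lower at P5 against E18.5 (without Lpl and Cpt1b), and within Myh4 myonuclei 0 of 10 higher and 4 lower in the adult against P5. The 3%, 4% and myosin alternatives take fewer nuclei or other nuclei by construction, and otherwise the cause was not tested. Shares of all genes called under these settings are not given here, so that the counts are not read as an excess. No call of the 8 between adult Myh2 and Myh4 myonuclei was lost, and Pdk4 was added with a share of 8% or a myosin share of 80%. No paired analysis was possible because each group is 1 library. Depth limits Angptl4 (3 to 174 UMIs in myonuclei) and the Pecam1-positive nuclei (505718 to 1122377 UMIs in all at the stages compared).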

Other observations

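At E14.5 Cd36 had 670 CPM in the 149 Myh8 myonuclei and 275 CPM in the 1167 Myh3 myonuclei of WT. At WT E18.5 the ratio of Myh8 to Myh3 myonuclei was 6.28 for Cpt1b, 2.26 for Lpl and 1.56 for Cd36, which was short of 2-fold.

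Among adipocyte nuclei, Ppara had 69.7 CPM in KO E18.5 and, in WT, 35.0 CPM from 3 UMIs at E18.5, 33.6 CPM at P5 and 429 CPM in the adult. Cd36 in these nuclei had 745.9 CPM in KO E18.5 and 175, 1454 and 1493 CPM in WT E18.5, P5 and adult, while Acsl1 had 5015 CPM in KO E18.5 and 4735, 3402 and 3767 CPM in the same WT stages.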
